A study of Homo sapiens with 2 samples.

Results

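The intergenic open regions of CAMA-1 that lay close to genes, but not at a transcription start site (TSS), were 36298 of the 215195 regions found open in both ATAC-seq replicates. Each was a merged interval of overlapping peaks, with a peak from replicate 1 and from replicate 2, on 1 of the 22 autosomes. The midpoint of the interval had to lie outside every gene of GENCODE release 44 on hg38, more than 3 kb from every annotated TSS and at most 100 kb from the nearest protein-coding TSS. These positions chose the regions among the shared ones, without use of their measured strength. A called peak in both replicates is itself a limit on strength. They made up 17.3% of the 209570 shared regions on autosomes, and they are called intergenic regions here. CAMA-1 is an estrogen receptor-positive breast cancer cell line of luminal epithelial type. ATAC-seq, which reads accessible chromatin with a transposase, was run on 2 biological replicates of 50000 untreated cells each, grown adherent in medium with fetal bovine serum. The Tn5 transposase of the assay inserts adapters into DNA that nucleosomes do not cover. Peaks were called by the authors in each replicate separately. Both replicates belong to 1 condition, so no groups of samples were compared, no test was run across regions, and values are given in each replicate with their mean and SD. As a single cell line was pooled in each library, the share of cells with a region open and the degree of opening in each cell cannot be told apart.

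Open chromatin between genes often marks enhancers, short stretches of DNA at which transcription factors gather and from which they act on the promoters of genes some distance away. Luminal breast cells are known for enhancers bound by the estrogen receptor, by the pioneer factors FOXA1 and GATA3, which open chromatin for other proteins, and by AP-2 and grainyhead-like factors. Other intergenic open regions hold CTCF, a zinc finger protein at which chromatin loops are anchored and which can insulate an enhancer from a promoter. AP-1 (dimers of FOS and JUN proteins) and TEAD factors bind enhancers in many adherent cells.

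The DNA of a few intergenic regions is shown first, since the later results turn on short words of this kind near the midpoints of the regions. For each of the motifs shown, the stretch comes from the strongest region, among the chromosomes shown, with a match in its central 200 bp. Capitals mark every match to the named motif on either strand, with 45 bases on each side of the match nearest the midpoint. All stretches are read 5′ to 3′ on the + strand of hg38. The CTCF word was searched as CCA, 2 bases, AG, 2 bases and GGC. The estrogen response element (ERE) was GGTCA and TGACC with 3 bases between them. AP-1 was searched as TGANTCA, AP-2 as GCCNNNGGC, the forkhead (FOX) word as TGTTTAC and GATA as AGATAA. A match is a description of the letters and not evidence of a bound protein.
CTCF, chr22:49951644-49951745: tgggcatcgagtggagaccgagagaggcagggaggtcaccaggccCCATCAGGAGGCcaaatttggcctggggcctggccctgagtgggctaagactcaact
AP-1, chr6:43798975-43799071: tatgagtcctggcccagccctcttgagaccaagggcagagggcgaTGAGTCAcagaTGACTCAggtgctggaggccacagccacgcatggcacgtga
ERE, chr21:37564866-37564968: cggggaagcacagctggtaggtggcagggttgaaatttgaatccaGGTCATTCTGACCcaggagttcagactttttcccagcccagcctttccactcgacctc
GATA, chr1:202057352-202057447: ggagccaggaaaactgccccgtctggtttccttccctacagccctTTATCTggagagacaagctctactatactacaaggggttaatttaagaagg
The CTCF stretch lay 9033 bp upstream of PIM3, which encodes a serine/threonine kinase. The AP-1 stretch lay downstream of VEGFA, which encodes the vascular endothelial growth factor A, and held 2 matches, both of them AP-1 words that read the same on either strand apart from the middle base. The ERE stretch lay 63655 bp downstream of the TSS of DYRK1A, a kinase, and the GATA stretch 43611 bp downstream of the TSS of ELF3, an ETS factor of epithelial cells. A 240-base stretch around the midpoint is also shown for the region near IER5, one of the strongest. The stretch has no match to any of the 11 motifs counted together further on. The region was 2733 bp wide and summit positions were not used, so its highest base can lie outside the stretch.
IER5, chr1:181117233-181117472: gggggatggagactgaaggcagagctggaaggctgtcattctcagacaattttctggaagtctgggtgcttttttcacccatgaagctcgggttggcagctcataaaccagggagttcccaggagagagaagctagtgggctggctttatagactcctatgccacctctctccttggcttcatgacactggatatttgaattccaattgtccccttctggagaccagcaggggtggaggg
This stretch had 52.1% G and C with 1 CG pair, and it holds no capitals because none of these motifs was found.

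The strength of a region was taken as its fold enrichment, the height of the tallest peak over the genome-wide background of its replicate, both plus 1 read. The height is the number of reads stacked at the highest base. The step between the deposited fold enrichments was 0.230 in replicate 1 and 0.221 in replicate 2, which gave backgrounds of 3.35 and 3.52 stacked reads and heights from 11 upwards. The total depth of the libraries was not used here. Intergenic regions had a median fold enrichment of 9.66 in replicate 1 and 9.95 in replicate 2 (mean 9.81 ± 0.203, SD, n = 2), that is, a median height of 41 and 44 reads. The quartiles were 5.75 and 20.9 in replicate 1, against 5.97 and 21.4 in the other replicate. Their median width was 355 bp, and together they covered 4.19% of the 413 Mb of sequence that met the same limits of position.

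Intergenic regions were weaker than those at TSSs and slightly stronger than those in gene bodies. The regions within 3 kb of a TSS had medians of 11.7 and 11.9, so that the ratio of intergenic to TSS regions was 0.828 ± 0.00693 (SD, n = 2), below 1 on 21 of 22 autosomes in each replicate. Regions inside genes and more than 3 kb from TSSs had medians of 8.97 and 9.29, and the ratio to them was 1.07 ± 0.00389, above 1 on 21 autosomes in replicate 1 and on 22 in replicate 2. In intergenic DNA farther than 100 kb from protein-coding TSSs the medians were 8.51 and 9.07, with a ratio of 1.12 ± 0.0266, above 1 on all 22 autosomes in both replicates. The 3 ratios differed from 1 by more than the spread between replicates. The gap to the TSS class was wider in the upper quartile, which was 32.4 and 33.2 for TSS regions.

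The density of open regions followed the same order of classes. There were 87.9 intergenic regions per Mb of eligible sequence, against 139 per Mb within 3 kb of TSSs, 67.8 per Mb in gene bodies and 30.1 per Mb in the DNA beyond 100 kb. Among the strongest 1000 shared regions on autosomes, 10.4% were intergenic regions of this kind, and 71.4% lay at TSSs. The share of intergenic regions was 13.1% among the strongest 10000 and 16.2% among the strongest 50000, against 17.3% of all.

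**Figure D1:**
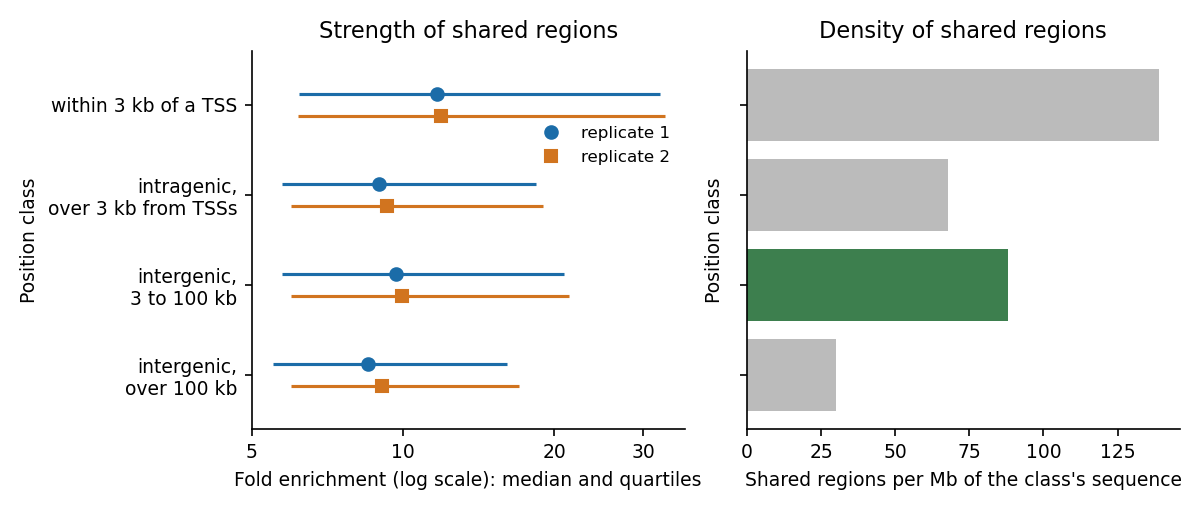
The left panel gives the fold enrichment of shared autosomal regions (log scale) in 4 position classes, with the median as a point and the quartiles as a line for each replicate, and the right panel gives the number of regions per Mb of the sequence that each class could occupy. The intergenic regions (green bar) had medians of 9.66 and 9.95, between the TSS class and the other classes, and a density of 87.9 per Mb.

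The replicates gave closely similar values for the same intergenic region. Of 46884 merged intervals that met the limits of position, 77.4% held a peak of both replicates (95% Wilson interval 77.0 to 77.8), against 77.1% of all merged autosomal intervals, so this share is close to the background. A peak of replicate 1 alone was found in 4140 intervals, with a median fold enrichment of 4.37, and of replicate 2 alone in 6446, with a median of 4.20. Intervals seen in 1 replicate were thus weak ones in both lists. Across the 36298 shared intergenic regions Spearman's rank correlation between replicates was 0.949 and Pearson's r was 0.989. These describe agreement across regions of the same pair of libraries. The fold enrichments were within 1.5-fold of each other in 94.5% of the regions and within 2-fold in 99.8%. Agreement within 1.5-fold was 91.1% in the weakest quartile and 99.7% in the strongest.

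The 10 strongest intergenic regions were chosen by their fold enrichment in both replicates, so their place far above their neighbours follows from that choice. The strongest lay 4252 bp upstream of RAB11FIP1, which encodes an effector of the recycling endosome, at chr8:37902488-37905009. Its height was 1346 reads in replicate 1 (95% exact Poisson interval 1275 to 1419.9) and 1554 in replicate 2 (1478 to 1633), which are fold enrichments of 309.9 and 344. The other 85 intergenic regions within 1 Mb had medians of 7.82 and 7.52. The intervals of its 2 heights did not overlap.

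The next lay on chromosome 15 between RHOV and SPINT1, which encodes an inhibitor of cell-surface serine proteases. Its fold enrichments were 268 and 255. A region beyond the 3′ end of VXN at chr8:66520888-66524348 followed with 237 and 239.9. The region downstream of the immediate early gene IER5 (chr1:181115987-181118719), 28653 bp from its TSS, had 229.9 and 253. The region 85181 bp upstream of PPP1R26, a regulator of protein phosphatase 1, had 241 and 237, and was the farthest of the 10 from a protein-coding TSS.

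The region 9577 bp upstream of SPRR2F, a small proline-rich protein of the cornified envelope, had 237 in both replicates. The region 3726 bp upstream of NEURL1B, a ubiquitin ligase of the Notch pathway, had 255 and 223. The region 43611 bp downstream of the TSS of ELF3 had 223 and 227. The region 4475 bp upstream of ZNF703, a transcriptional repressor of luminal breast cells, had 205 and 219, and the one 12835 bp downstream of the TSS of FGFR4, a fibroblast growth factor receptor, had 214 and 211. None of the 10 had a match to the CTCF word in its central 200 bp, and 3 of them had one to the AP-2 word.

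**Figure D2:**
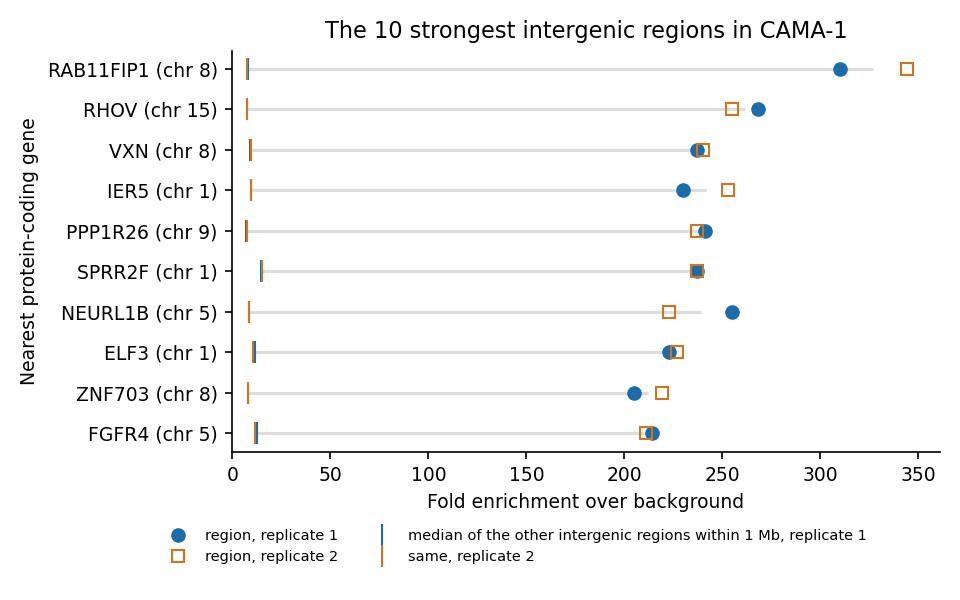
Fold enrichment of the 10 intergenic regions with the best mean rank, named by the nearest protein-coding gene, in replicate 1 (filled circles) and replicate 2 (open squares), beside the median of the other intergenic regions within 1 Mb in each replicate (vertical ticks). All 10 lay between 205 and 344, while the local medians lay between 7.13 and 15.3.

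Copy number differs along the CAMA-1 genome, was not measured in these files, and its part in the strengths was not tested. The background of the peak caller was a single value for the whole genome, so local copy number was not divided out. Around the region upstream of RAB11FIP1 the 181 TSS regions within 1 Mb had median fold enrichments of 9.43 and 10.2, and around the region upstream of ZNF703 the 152 TSS regions had 10.1 and 10.8. These local values were below the medians of all TSS regions, 11.7 and 11.9, in both replicates, as they were around 7 of the 10 strongest regions. Around the other 3 they were above them, with 16.0 and 17.4 near IER5, 15.2 and 13.7 near VXN and 13.6 and 14.4 near RHOV. Within 1 Mb of MYEOV, in a segment often amplified in breast cancer, the TSS regions had medians of 8.51 and 8.18. The local medians were taken over called regions only and are not a measure of copy number.

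The widest intergenic regions were domains of several kilobases. A region of 11259 bp at chr17:40456516-40467774 lay between IGFBP4, an estrogen-responsive binding protein of insulin-like growth factors, and TNS4, a tensin of focal adhesions. It was made of 3 peaks in replicate 1 and 2 in replicate 2, with fold enrichments of 23 and 21.4, so its width did not go with an extreme height. A region of 10530 bp near NRBP2 and EPPK1 had 92.3 and 98.0. A region of 10329 bp upstream of PIM3 was joined from 5 peaks in replicate 1 and was 1 peak in replicate 2, and had 173 and 184.

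Strength changed little with distance from genes, whereas density changed strongly. The median distance to the nearest protein-coding TSS was 24156 bp, with quartiles of 11102 and 47642 bp. Between 3 and 5 kb from it there were 129 intergenic regions per Mb of eligible sequence, and between 50 and 100 kb there were 67.4 per Mb, with a fall at each step between. The median fold enrichment was 9.89 and 9.95 in the nearest bin and 9.43 and 9.73 in the farthest. The 90th percentile fell from 45.3 and 45.4 to 38.9 and 39.8. The nearest bin held 2567 regions and the farthest 8429.

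**Figure D3:**
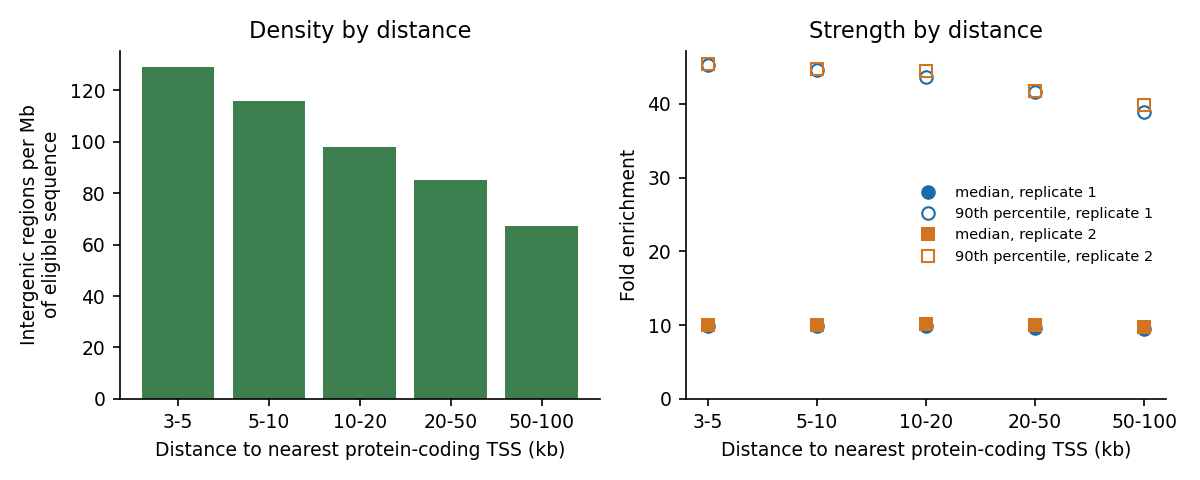
The left panel plots intergenic regions per Mb of eligible sequence by distance to the nearest protein-coding TSS (kb), and the right panel plots the median (filled) and the 90th percentile (open) of their fold enrichment in each replicate. Density fell from 129 to 67.4 per Mb, while the medians stayed between 9.43 and 10.2.

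The limits of position cut through a continuous range of regions. Just inside the 3 kb limit, a region near SASH1 had 4.6 and 4.86 and one near XIRP1 had 97.8 and 98.8. Just outside it, a region near ST8SIA3 had 5.06 and 7.30 and one near SKAP1 had 20.9 and 24.1. Just inside the 100 kb limit, regions assigned to APIP (13.6 and 14.4) and TLE4 (5.06 and 5.31) were kept. Just beyond it, regions assigned to PTBP2 (3.45 and 3.76) and SOX5 (19.6 and 19.9) were left out.

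More intergenic regions lay upstream than downstream of the nearest protein-coding TSS, but not per Mb. Upstream regions were 59.2% of all, at 84.7 per Mb of eligible sequence, and downstream regions, which lie beyond the 3′ ends of genes, were at 92.9 per Mb. Their medians were 9.89 and 9.95 upstream and 9.43 and 9.73 downstream. Gaps between convergent genes, which hold no promoter of either neighbour, had 93.8 regions per Mb, gaps between tandem genes 88.3 and gaps between divergent genes 78.9. Medians differed little among the 3 kinds of gap, 9.66 to 9.89 in replicate 1 and 9.73 to 10.2 in replicate 2. For 46.6% of the intergenic regions the nearest TSS of any gene belonged to a protein-coding gene. For the others it belonged to a gene of another type.

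Another annotation places start sites in a few of the regions. Of the intergenic regions, 275 (0.758%) overlapped a RefSeq promoter of the GRCh38.p14 table, and these had medians of 22.5 and 23.2, against 9.66 and 9.95 for the other 36023. CpG-rich centres were more than 3 times as strong as the rest. With at least 55% G and C and an observed-to-expected CpG ratio of at least 0.65 in the central 200 bp, 509 regions (1.40%) had medians of 29.7 and 31.2 and a median width of 644 bp, against 9.66 and 9.73 and 353 bp. At TSSs 16.4% of the regions had such centres and in gene bodies 0.646%. The median centre of the intergenic regions had 50% G and C and their flanks had 45.8%.

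Intergenic regions were unevenly spread. The median distance to the next intergenic region was 2679 bp, and 83.3% had another within 12.5 kb. Clusters of 5 or more, linked within 12.5 kb, numbered 1981 and held 44.3% of the regions. The 3 with the most regions lay at 11q13. A cluster of 64 regions spanned 157 kb between FGF3, a fibroblast growth factor, and ANO1, a calcium-activated chloride channel, with medians of 8.17 and 8.51. Another of 50 spanned 117 kb near MYEOV, and one of 44 spanned 131 kb with FGF19, FGF4 and FGF3. Their strongest regions reached 142, 155 and 98.7 in replicate 1 and 136, 157 and 106 in replicate 2. Within 1 Mb of MYEOV there were 364 shared regions of all classes per Mb, against 72.9 over all autosomes, and the TSS regions there had medians of 8.51 and 8.18. This segment is often amplified in breast cancer, and the part of copy number in its density was not tested. The next clusters by number were 40 regions near DENND3 and PTK2 (medians 12.4 and 11.7) and 39 near IER5 (10.6 and 12.2).

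Of 19103 autosomal protein-coding genes, 8904 (46.6%) were the nearest for at least 1 intergenic region, with a median of 3 each, and the 802 genes with 10 or more took 32.1% of all regions. The genes with the most were ADRA2C, an adrenergic receptor, and ST3GAL1, a sialyltransferase, each with 44. TLE3, a corepressor of the Groucho family, had 41. FGF3, IER5, MYEOV and INHBB, which encodes the inhibin beta B subunit, had 40 each. OLFM1 had 39, TENT5C, a poly(A) polymerase, 38, and EDN1, which encodes endothelin 1, 34. Per 100 kb of eligible sequence MYEOV had the most of the 10, 44.9, and EDN1 the fewest, 20.4. The median fold enrichment of their regions was 6.44 to 11.5 in replicate 1 and 6.19 to 10.7 in replicate 2. Of the 10, OLFM1 and MYEOV were lowest. Around INHBB 307 shared regions lay within 1 Mb, which is 154 per Mb, and the TSS regions there had medians of 16.7 and 16.1.

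Lists of genes with known roles differed in how densely intergenic regions lay near them. Over all autosomal protein-coding genes there were 8.79 regions per 100 kb of eligible sequence, and 46.6% of the genes had at least 1 region. Genes without eligible sequence could hold none. Some were in each list except the estrogen-induced one, with more of them in the blood lineage and housekeeping lists, so counts of genes depend on this too. Near luminal transcription factors and keratins there were 17.5 per 100 kb, 169 regions at 21 of 22 genes. The most were at TRPS1 (23), a GATA-type repressor, TFAP2A (19), which encodes AP-2 alpha, and KLF5 (15). FOXA1 had 2 in only 6.61 kb of eligible sequence, and ESR1, the estrogen receptor, had 5. Near estrogen-induced genes there were 21.0 per 100 kb, with regions at all 20 genes. CCND1, which encodes cyclin D1, had 32, MYC 29 and the chemokine CXCL12 18. Without CCND1 and MYC, both of which lie in segments often amplified in breast cancer, the density near estrogen-induced genes was 17.6.

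Near basal and mesenchymal genes the density was 7.02 per 100 kb, 75 regions at 14 of 20 genes. SNAI1, a repressor of epithelial genes, had 18 of them, and without it the density was 5.66. Genes of this list with eligible sequence ran from 0, as at ZEB2, to 31.4 per 100 kb at SPARC. The basal keratins KRT17, KRT14 and KRT5 had 29.3, 23.8 and 9.18 per 100 kb. Genes of the luminal list ran from 5.06 at TFAP2B to 122 at EPCAM, which had 1 region. The regions of SNAI1 reached 130.2 and 149, those of EGFR, the epidermal growth factor receptor, 27.2 and 28.1, and those of TP63, a basal factor, 89.3 and 88.5. Near blood lineage genes the density was 7.29 per 100 kb, 31 regions at 7 of 19 genes, led by RUNX3 with 14, TBX21 with 5 and PTPRC with 4. Near housekeeping genes, which lie in small gaps of 249 kb in all, it was 22.5, with 56 regions at 8 of 14 genes. YWHAZ had 34 of these regions and GUSB 4. A high density was thus not limited to luminal or estrogen-induced genes. The lists differed less in strength. Their medians were between 9.20 and 11.7 in replicate 1 and between 9.51 and 11.1 in replicate 2.

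The centres of the intergenic regions held more motif matches than their flanks 500 to 700 bp from the midpoint, for 11 of the 12 motifs. CTCF differed most among the motifs with more than 100 matching regions. Its word was in the central 200 bp of 2097 regions (5.78%, 95% Wilson interval 5.54 to 6.02) and in 0.742% of flank windows of the same length, a ratio of 7.78. The word was in 4.77% of all shared regions, in 4.30% of those at TSSs and in 4.70% of those in gene bodies. Beyond 100 kb it was in 4.88%. The ratio of centres to flanks was 4.58 at TSSs, 6.79 in gene bodies and 9.46 beyond 100 kb. The excess at centres was thus not particular to this set. Read backwards without complementing it, the CTCF word was in 0.0523% of centres and 0.0799% of flanks. The backward word requires a CG pair, which the word itself does not, and it was rarer in flanks too. It is thus not a matched control for the CTCF word.

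AP-1 was found in more regions, with a smaller ratio. Its word was in 11.1% of centres and 5.85% of flanks, a ratio of 1.90, against 10.1% of all shared regions. The AP-2 word was in 10.9% of centres (ratio 2.3) and in 11.7% of all shared regions. The FOX word was in 5.53% (ratio 2.3; all shared regions 5.59%). Grainyhead-like (GRHL, AACNNGTT), TEAD (ACATTCC) and ETS (CCGGAAG) words had ratios of 1.66, 1.69 and 1.65, and RUNX (TGTGGTT) and SP/KLF (GGGCGG) words 1.34 and 1.29. The shares of these 5 words were 4.51%, 4.25%, 1.07%, 4.59% and 6.17% of centres and 4.43%, 3.96%, 1.58%, 4.46% and 9.27% of all shared regions. Read backwards, the AP-1 word had a ratio of 1.17, so part of its ratio is shared by another order of the same letters. The backward AP-2 and ETS words had ratios of 1.58 and 1.40. They were in 0.630% and 2.60% of flanks, against 4.73% and 0.646% for the words themselves. Reading backwards adds CG pairs to the AP-2 word and removes that of the ETS word. For these words it is not a matched control.

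GATA was the exception. Its word was in 9.27% of centres and 11.4% of flanks, a ratio of 0.810, while it was in 9.34% of all shared regions. The GATA word has few G and C, while the centres had more G and C than the flanks (medians 50% and 45.8%). The part of this in the GATA ratio was not tested. Read backwards, the GATA word had a ratio of 0.710. For the FOX and GRHL words, with more G and C than the GATA word, the ratios were 2.3 and 1.66. Read backwards, these were 0.915 and 1.16. The ERE was in 26 centres (0.0716%, 95% interval 0.0489 to 0.105) and in 0.0654% of all shared regions. Its ratio of 3.06 rests on few regions, and read backwards the same letters gave 2.0. The NFI word (TTGGC, 5 bases, GCCAA) was in 29 centres and in 0.0716% of all shared regions. Its ratio of 4.46 also rests on few regions, and was 2.50 with the central 100 bp and 6.44 with flanks taken farther from the midpoint.

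**Figure D4:**
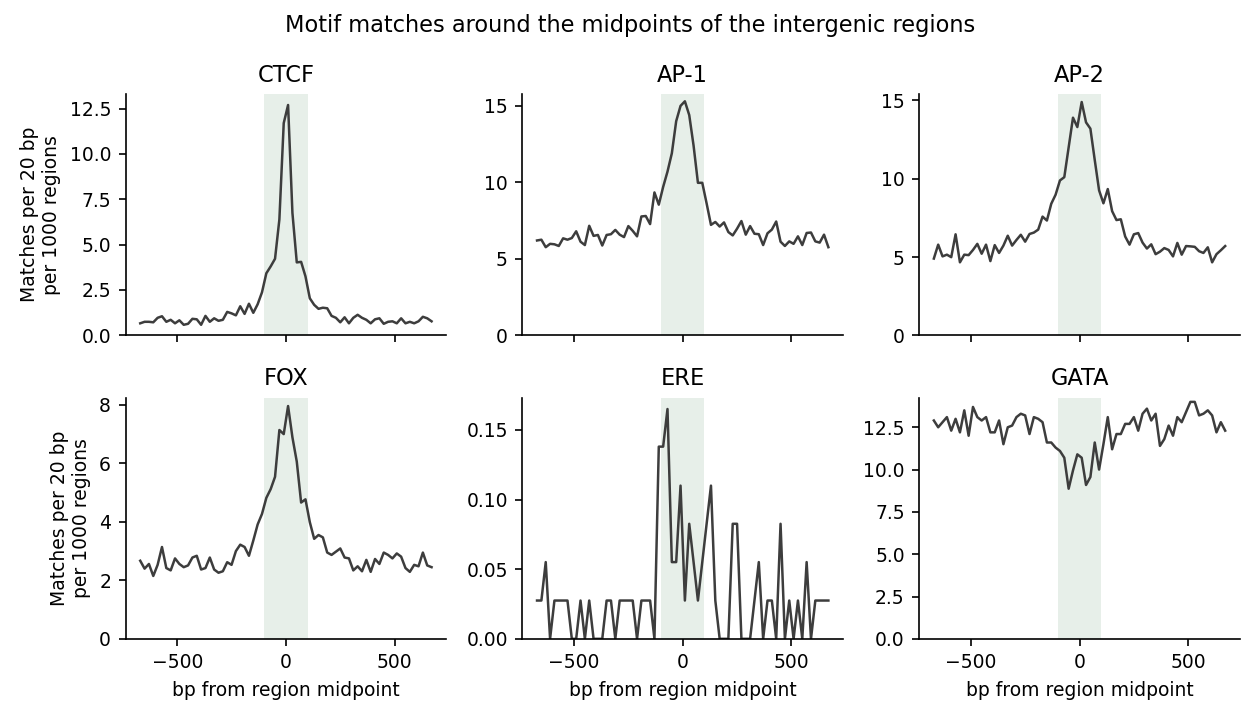
Matches per 20 bp and per 1000 intergenic regions by distance from the midpoint (bp) for 6 motifs, with the central 200 bp shaded. CTCF, AP-1, AP-2 and FOX peaked at the midpoint, GATA dipped there, and the uneven ERE line rests on 84 matches in all.

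Outside chromosome 8, the strongest regions with 9 of the motifs had the following fold enrichments in replicate 1 and replicate 2. The AP-1 region downstream of VEGFA had fold enrichments of 202 and 205, and the CTCF region upstream of PIM3, one of the 3 widest, had 173 and 184. The FOX region between DEF6 and PPARD had 186 and 198, and 43.8% of the 32-letter words of its centre occurred elsewhere in the genome. A GRHL word and a GATA word were in the centre of a region between SLC29A1, a nucleoside transporter, and HSP90AB1, a chaperone (198 and 208). A TEAD word was in a region 56030 bp beyond the TSS of DUSP1, a phosphatase of MAP kinases (175 and 169), and a RUNX word in one downstream of FTO, an RNA demethylase (197 and 212). The ETS region, upstream of BOD1, was lower, at 135 and 131. The ERE region, which also held a CTCF word, had 78 and 79.6 and ranked 978 among the intergenic regions, and the NFI region upstream of ZNRF2 had 63.3 and 57.7 and ranked 1892.

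Regions with a CTCF word were stronger than those without it, and regions with an AP-1 or FOX word were not. With CTCF the medians were 17.0 and 16.6, against 9.43 and 9.73 without it, a ratio of 1.75 ± 0.0709 (SD, n = 2). The widths were similar, with medians of 348 and 355 bp. For AP-1 the ratio was 1.00 ± 0.0325 and for FOX 1.01 ± 0.0168, neither differing from 1 by more than the spread between replicates. For AP-2 it was 1.05 ± 0.00224. SP/KLF words went with strength (ratio 1.51 ± 0.0419), as did ETS words (1.24 ± 0.0281). The ratios for TEAD (0.954 ± 0.00225) and GATA words (0.977 ± 0.00112) were close to 1. With a GATA word the medians were 9.43 and 9.73, against 9.66 and 9.95 without it. These gaps are about the size of the steps between fold enrichments, 0.230 and 0.221. With values in such steps, the small SDs for AP-2, TEAD and GATA do not measure precision. The 26 regions with an ERE had medians of 19.4 and 19.8.

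The CTCF difference was larger in regions rich in G and C. In the fifth of intergenic regions with the lowest G and C content the ratio with to without CTCF was 1.25 in replicate 1 and 1.11 in replicate 2. In the fifth with the highest it was 2.58 and 2.51, with medians of 26.1 and 25.5 against 10.1 and 10.2. The ratio rose at each step between in both replicates.

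Along the range of strength, the CTCF share rose and then fell. With the regions divided into 10 bins of equal number by fold enrichment, it was 2.34% in the weakest bin, rose to 10.8% in bin 9, and was 7.60% in the strongest bin. The strongest bin held wide regions, with a median width of 856 bp against 574 bp in bin 9. Among the regions of the strongest bin up to its median width, 12.2% had a CTCF word at the centre (95% Wilson interval 10.7 to 13.8), and among the wider ones 3.03% (2.34 to 3.93). In bin 9 these shares were 16.2% and 5.30%. As summit positions were not used here, the midpoint of a wide region can lie away from its highest base, and the part of this in the shares was not tested. AP-2 and SP/KLF shares were highest in the strongest bin, 14.3% and 12%, against 11% and 4.30% in the weakest. AP-1 stayed between 10.1% and 12% in all bins.

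**Figure D5:**
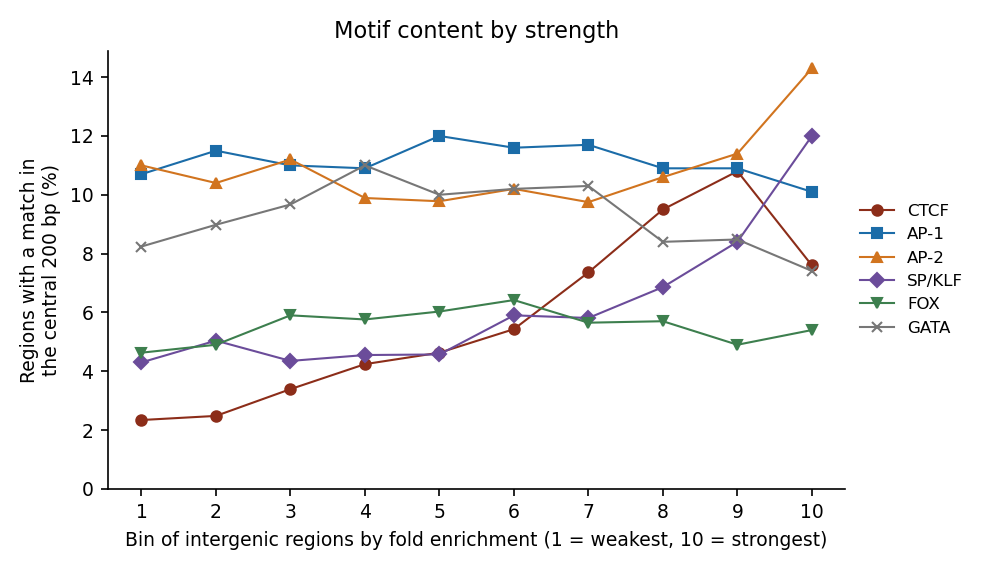
Share of intergenic regions with a match in the central 200 bp (%) for 6 motifs, in 10 bins of equal number by fold enrichment, from weakest (1) to strongest (10). CTCF rose from 2.34% to 10.8% in bin 9, SP/KLF reached 12% in the last bin, and AP-1 stayed between 10.1% and 12%.

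The motif content also changed with distance from genes. FOX words were in 4.29% of regions 3 to 5 kb from the nearest protein-coding TSS and in 6.57% of those 50 to 100 kb away, and AP-1 words in 10.1% and 11.8%. SP/KLF words fell from 7.13% to 5.41% and CpG-rich centres from 1.87% to 1.06%. CTCF was in 5.53% and 5.42% of these bins. At least 1 of 11 motifs (the 12 without SP/KLF) was found in the centre of fewer than 50% of the regions, since 53.9% had none. Regions without any had medians of 9.20 and 9.51, those with 1 motif 10.1 and 10.2, and those with 3 motifs 11.5 and 11.7.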

How the data were processed

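CAMA-1 ATAC-seq libraries of 2 biological replicates were analysed from peak lists, 1 list per replicate. Per the labels and the submitters' processing notes, reads were trimmed with Trim Galore 0.6.5 and aligned to hg38 with Bowtie2 2.3.5.1, and the authors called peaks with MACS2 2.2.6 in each replicate separately. The peak settings, the treatment of duplicate reads and any excluded regions are not given in the sources used here. The authors deposited, per peak, a score, a ratio of the height to background (the fold enrichment), and p-values and q-values as −log10. Summit positions were not used here. The total depth is not in the lists. The height behind a peak limits its precision, and intervals cover counting error only, since reads without molecular identifiers are not independent molecules.

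Peaks of both replicates were merged where they overlapped by at least 1 bp, and a region counted as shared when both contributed. The strength of a region in a replicate is that of its strongest peak there. Regions were placed by their midpoints with GENCODE release 44, and eligible sequence was counted on a 10 bp grid. Motifs were searched on both strands in the central 200 bp and in flanks 500 to 700 bp away. The members, the gene lists and the motifs were chosen with earlier results of these data known, and the splits of CTCF regions by G and C content and by width were chosen after seeing the data. The regions named are the 10 with the best mean rank of fold enrichment over both replicates, the 3 widest, the 2 on each side of each limit of position, and the strongest with each motif outside chromosome 8. The genes named are the nearest protein-coding genes of these regions, the 10 with the most regions and the 3 of each list with the most. ESR1, FOXA1 and the genes of the 5 clusters with the most regions were named after their values were seen. So were ZEB2, SPARC, TFAP2B, EPCAM and the basal keratins. The region of the closed control primers is not analysed here. A gene and a few sequences that these rules select are not reported here.

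The functions were tested on simulated peaks, genes and sequences with known answers. As alternatives, the −log10 q was set to 10 or more, and the others were a reciprocal overlap of 50%, protein-coding genes alone, other limits of position, other measures of strength, other motif windows and the omission of each replicate. The analysis used Python 3.11.15, numpy 2.4.6, pandas 2.3.3, scipy 1.17.1 and matplotlib 3.10.9.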

Additional observations from a re-analysis of the deposited data

How the results depend on the processing

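Of 103 values recomputed under 14 alternatives, 59 stayed close to the main value, 44 moved and 0 changed direction. The limits for a move differed among kinds of value. Counts, medians, densities, shares and the correlation have no direction, so the 0 bears on ratios only. Intergenic regions stayed weaker than TSS regions and stronger than those in gene bodies under each of the 10 alternatives that bear on strength, and 11 of 12 motifs stayed above their flanks under each of the 4 motif alternatives. With a −log10 q of at least 10 the median fold enrichment was 13.5, the ratio to TSS regions 0.764, the ratio to gene bodies 1.09 and the share found in both replicates 82.3%. With a reciprocal overlap of 50% the median was 10.0 and the ratio to TSS regions 0.795. With protein-coding genes and TSSs alone there were 55008 regions, with ratios of 0.765 and 1.09. With a limit of 5 kb from TSSs, which also widened the TSS class to 5 kb, the ratio to that class was 0.879. With 10 kb for both there were 21998 regions, and this ratio was 0.935. The intergenic median was 9.81 under both limits, as in the main setting, so these ratios moved with the TSS class. With the −log10 q in place of fold enrichment the ratios were 0.743 and 1.12. With a single replicate in turn, the number of regions was 41317 to 43389, the median 7.96 to 8.28, the density 100 to 105 per Mb, the ratio to TSS regions 0.857 to 0.878 and the ratio to gene bodies 1.06 in both cases. Apart from the sets and classes that the limits themselves change, the cause of these shifts was not tested. Counting both flanking genes within 100 kb gave 212 regions for the luminal list, and 59 in place of 31 for the blood lineage list. The CTCF ratio to flanks ran from 4.90 (central 400 bp) to 11.3 (central 100 bp), and the NFI ratio from 2.50 (central 100 bp) to 6.44 (flanks farther from the midpoint).

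No paired analysis was possible because there is 1 condition, with no second group to pair. The alternative without repeat-masked bases was not run, since the genome used is not masked. The height of a weak region, 11 reads at least, limits what can be said of regions absent from the lists.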

Other observations

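A search of all 8-letter words without a chosen motif gave the same leading letters. Of 13392 words present in the centres of at least 200 intergenic regions, the word with the highest ratio of centre to flanks was GAGGGCGC, in 0.956% of centres and 0.147% of flanks (ratio 6.49). The 9 words with the next highest ratios included AGAGGGCG (5.58), CCACTAGG (5.12), CTAGTGGC (4.53) and AGGTGGCG (4.33), which overlap with each other and are pieces of the longer CTCF motif as known from textbooks, and ATGACTCA (4.13), which holds the AP-1 word. Regions with GAGGGCGC had medians of 19.8 and 18.4, those with CCACTAGG 12.2 and 11.9, and those with ATGACTCA 9.89 and 9.51. Among words in at least 200 flank windows, those with the lowest ratios were ATCGAGAC (0.0836) and GGTCTCGA (0.0967), which were in 0.0854% and 0.300% of centres and were far more frequent in the flanks.

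Repeated sequence was slightly more frequent in the intergenic regions than in the other classes. On average 4.83% of the 32-letter words of their central 200 bp occurred elsewhere in the genome, against 3.97% at TSSs, 3.95% in gene bodies and 4.10% beyond 100 kb. More than 50% of the words did so in 1088 regions (3.0%), whose medians were 8.05 and 8.18, against 9.66 and 9.95 for the rest, and which included 1 of the strongest 100. Among autosomes, the density of intergenic regions ran from 61.1 per Mb on chromosome 18 to 148 per Mb on chromosome 22, and the median fold enrichment was highest on chromosome 19, at 11.5 and 11.7.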
